A study of Arabidopsis thaliana with 39 samples.

Results

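MATE (AT1G51340, chromosome 1), which exports citrate from root cells, and RAE1 (AT5G01720, chromosome 5), an F-box protein that marks the transcription factor STOP1 for breakdown, were followed in Arabidopsis thaliana roots during the first hours after phosphate, iron or both were withdrawn. The members were all rows whose annotation names only AT1G51340 or only AT5G01720. Each gene had 1 such row (transcript cluster 13350723 for MATE and 13520980 for RAE1), so that 2 genes were described out of 16552 with a row of their own and 2 rows out of 28501. The symbol RAE1 is also that of another gene in RefSeq, the RNA export factor AT1G80670, which has 0 rows in the annotation and is not meant here.

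The plants were of the accession Columbia-0, with no mutation or transgene named in the labels, and their root RNA was hybridised to 39 whole-transcript arrays, 3 for each of 13 groups. Plants had grown for 10 days on full nutrient medium with 1 mM phosphate. After transfer they spent 3, 6 or 9 h on medium without phosphate, without iron, without both, or on full medium, and roots taken at the transfer formed the time 0 group. Nothing in the labels says that replicates 1, 2 and 3 of a group were separate cultures, and p-values then cover only the spread of these samples, which may be technical.

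STOP1 is a zinc-finger protein that accumulates at low pH and under aluminium, and it switches on genes for organic acid export, among them the malate channel ALMT1 and the citrate transporter MATE. Citrate and malate released by the root bind aluminium and iron in the soil around it. RAE1 is itself a target of STOP1, which closes a negative feedback loop, and the STOP1 and ALMT1 branch is known for the arrest of primary root growth that follows when phosphate is low and iron is present.

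MATE had higher levels in roots without phosphate than in roots without iron, by a difference that just missed the threshold. Averaged over 3, 6 and 9 h the log2 difference was 1.15 (SE 0.26, 95% interval 0.63 to 1.68, 2.22-fold), and the no phosphate arrays lay above the no iron arrays at each of the 3 times (as for 4.74%, 3.56% and 3.69% of all rows at 3, 6 and 9 h). The limma adjusted p over all rows was 0.0594, above the threshold of 0.05, and it was 0.0431 with the replicate number as a block. RAE1 differed in the same direction by 0.25 (SE 0.10, 95% interval 0.04 to 0.47, adjusted p = 0.869). In the fit as designed, without the block, limma called neither gene in any of the 57 comparisons made. The unadjusted p was under 0.05 for MATE in 18 of them and for RAE1 in 7. Among all rows, 8.58% to 11.9% had such a p in a comparison with time 0 and 1.98% to 6.2% in any other. The 57 comparisons reuse the same 13 groups, so such p-values come together within a row. The shares per comparison are therefore no measure for the counts of 18 and 7, and how many rows had as many was not counted.

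Calls were rare between media for any gene. Limma called 0% of rows in no phosphate against full medium at 3 and 6 h and in the mean, in no iron against full medium at each time, and in both absent against full medium at 6 h, where 675 to 1286 rows had an unadjusted p under 0.05. It called 0.00702% in no phosphate against full medium at 9 h, and in both absent against full medium 0.0246% at 3 h, 0.00351% at 9 h and 0.0105% in the mean. For phosphate absent against present it called 0.0246% at 3 h, and for iron absent against present 0.00351% at 3 h and 0.00702% at 9 h. Between deprived media it called 0.0211% for both absent against either single deprivation at 3 h and at most 0.0105% at other single times. Against time 0 the shares were larger, with 0.863%, 1.25% and 1.35% without iron, 1.63%, 1.28% and 1.74% without both, and 0.575%, 1.15% and 1.27% in full medium at 3, 6 and 9 h. Neither MATE nor RAE1 was among any of these calls.

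Levels are log2 array values and are compared within a gene only, since the brightness of different probes cannot be compared. At 3 h MATE stood at 4.64, 4.97 and 4.67 in the 3 no phosphate arrays. The no iron arrays gave 3.28, 4.62 and 4.07, the arrays without both gave 4.45, 4.87 and 3.72, and the full medium arrays gave 4.07, 4.59 and 4.32. The 3 no phosphate arrays were the tightest and lay above all 3 arrays of the no iron and of the full medium group, while the arrays without both overlapped every other medium.

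At 6 h the no phosphate arrays gave MATE levels of 4.99, 5.05 and 5.23, and the no iron arrays 3.53, 4.74 and 3.65. The arrays without both gave 4.87, 5.06 and 6.15, against 4.94, 4.07 and 6.70 in full medium. Full medium was the most scattered group for MATE (5.24 ± 1.34, SD, n = 3), with its replicate 3 the highest of all 39 arrays and its replicate 2 below every array without phosphate at 6 h. Both groups without phosphate lay wholly above the no iron group and overlapped full medium.

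At 9 h the no phosphate arrays gave 5.81, 5.32 and 5.02, and the no iron arrays 3.42, 4.05 and 3.96. The arrays without both gave 5.28, 4.80 and 5.05, against 4.78, 3.90 and 4.57 in full medium. All 6 arrays without phosphate, with or without iron, were above all 6 arrays with phosphate, although the lowest of the first (4.80) and the highest of the second (4.78) nearly met. At time 0 MATE had stood at 3.77, 4.50 and 3.83.

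RAE1 varied much less. At 3 h its levels were 6.35, 6.16 and 6.28 in the no phosphate arrays and 6.34, 6.10 and 6.37 in the no iron arrays. The arrays without both gave 6.27, 6.51 and 5.96, against 6.44, 6.47 and 6.26 in full medium. All 4 media overlapped, with 1 low array, replicate 3 of the group without both.

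At 6 h RAE1 stood at 6.31, 6.53 and 6.33 without phosphate and at 6.36, 5.84 and 5.89 without iron. The roots without both gave 6.12, 6.20 and 6.63, against 5.80, 6.04 and 6.57 in full medium. The media overlapped again, and replicate 3 was the highest array of the full medium group and of the group without both, as it was for MATE.

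At 9 h RAE1 stood at 6.71, 6.73 and 6.34 without phosphate and at 6.42, 6.09 and 6.06 without iron. The roots without both gave 6.60, 6.26 and 6.80, against 6.28, 6.15 and 6.21 in full medium. The no phosphate arrays were above the full medium arrays, while the group without both overlapped full medium by 1 array. At time 0 the levels were 6.61, 6.36 and 6.33. Their mean of 6.43 was exceeded only by the means of the groups without phosphate at 9 h, with or without iron.

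**Figure D1:**
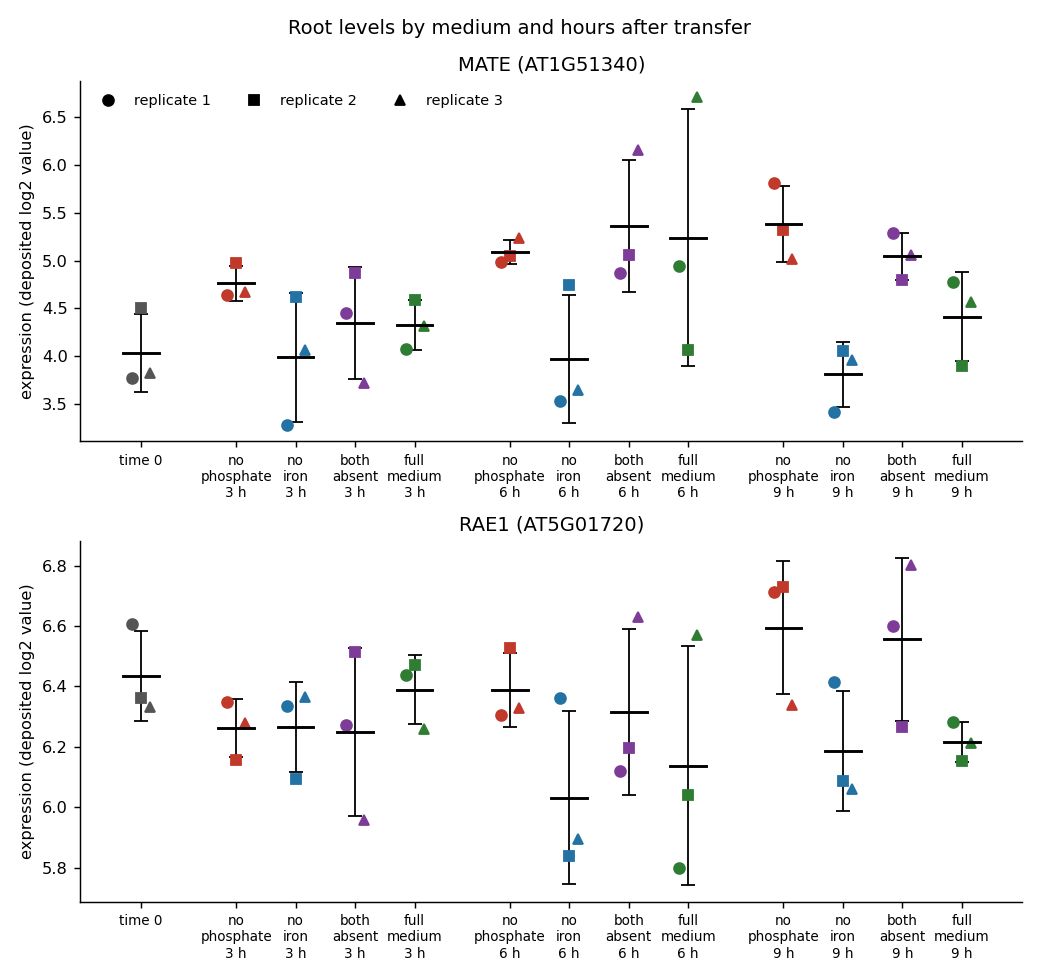
Log2 level of MATE and of RAE1 (vertical axes, deposited array values) by medium and hours after transfer, with each array as a point and the group mean and SD (n = 3) marked. MATE is high in both groups without phosphate at 9 h and low without iron at all 3 times, and 1 full medium array at 6 h reaches 6.70, while RAE1 stays between 5.80 and 6.80.

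The means of the 13 groups spanned 1.57 for MATE, more than for 98.4% of rows, but its SD within groups, 0.578, was also higher than that of 96.1% of rows. From low to high they ran from no iron at 9, 6 and 3 h (3.81 ± 0.34, 3.97 ± 0.67 and 3.99 ± 0.67, SD, n = 3 each) through time 0 (4.03 ± 0.41), full medium at 3 h (4.33 ± 0.26), the group without both at 3 h (4.35 ± 0.58) and full medium at 9 h (4.41 ± 0.46). The upper part held no phosphate at 3 h (4.76 ± 0.18), both absent at 9 h (5.04 ± 0.24), no phosphate at 6 h (5.09 ± 0.13), full medium at 6 h (5.24 ± 1.34), both absent at 6 h (5.36 ± 0.69) and no phosphate at 9 h (5.38 ± 0.40). Only 1 pair of neighbours in this order differed by more than the larger of their SDs, both absent at 9 h and no phosphate at 3 h, by 0.28. The lowest and highest groups were both at 9 h, without iron and without phosphate.

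RAE1 group means spanned 0.563, more than for 68.7% of rows, with an SD within groups of 0.221. They were lowest without iron at 6 h (6.03 ± 0.29), in full medium at 6 h (6.14 ± 0.40), without iron at 9 h (6.19 ± 0.20) and in full medium at 9 h (6.22 ± 0.07). Next came both absent at 3 h (6.25 ± 0.28), no phosphate at 3 h (6.26 ± 0.10), no iron at 3 h (6.27 ± 0.15), both absent at 6 h (6.32 ± 0.27), no phosphate at 6 h (6.39 ± 0.12) and full medium at 3 h (6.39 ± 0.11). Time 0 (6.43 ± 0.15) and then both absent at 9 h (6.56 ± 0.27) and no phosphate at 9 h (6.59 ± 0.22) were the highest. No 2 neighbours in this order differed by more than the larger of their SDs. As for MATE, the top group was no phosphate at 9 h.

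Phosphate absent against phosphate present sets the 18 arrays without phosphate, with or without iron, against the 18 transferred arrays with it. MATE ranged over 3.72 to 6.15 (median 5.0) without phosphate, against 3.28 to 6.70 (median 4.07) with it. The ranges overlapped, with the highest array of all on full medium. The mean log2 difference was 0.71 (SE 0.18, 95% interval 0.34 to 1.07, 1.63-fold) with an adjusted p of 0.225, in a comparison where limma called 27 rows, or 0.0947% of all. Without replicate 3 of full medium at 6 h, the array with the highest MATE level, it was 0.83 with an adjusted p of 0.00831. Of 36 fits that each left out 1 array, this was the only 1 under 0.05. Over these fits the difference went as low as 0.61 and the adjusted p as high as 0.406.

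Time by time the MATE difference was 0.40 at 3 h (SE 0.31, 95% interval -0.24 to 1.04), 0.62 at 6 h (-0.02 to 1.26) and 1.1 at 9 h (0.46 to 1.74, 2.14-fold). These 3 comparisons were chosen once values had been looked at. The adjusted p at 9 h was 0.945, although the unadjusted p was 0.00142 and the 6 arrays without phosphate did not overlap the 6 with it. Arrays lay wholly higher in this way for 0.112% of all rows, and limma called 0.0105% of rows.

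RAE1 ranged over 5.96 to 6.80 (median 6.33) without phosphate, against 5.80 to 6.57 (median 6.24) with it. The mean difference was 0.19 (SE 0.07, 95% interval 0.04 to 0.34, 1.14-fold, adjusted p = 0.74). By time it was -0.07 at 3 h, 0.27 at 6 h and 0.37 at 9 h (95% interval 0.11 to 0.63, unadjusted p = 0.00644, adjusted p = 1). Both genes thus had their largest estimate at 9 h, and for RAE1 the sign at 3 h was the opposite one.

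Iron absent against iron present gave a MATE difference of the other sign. The mean was -0.45 (SE 0.18, 95% interval -0.82 to -0.08, adjusted p = 1), with -0.38, -0.50 and -0.47 at 3, 6 and 9 h, against 0.0737% of rows called for the mean. RAE1 differed by -0.06 (95% interval -0.21 to 0.09). The 3 estimates for MATE lay close together, with intervals that each included 0. The 6 h estimate averaged unlike parts, -1.27 where phosphate was present and 0.27 where it was absent.

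**Figure D2:**
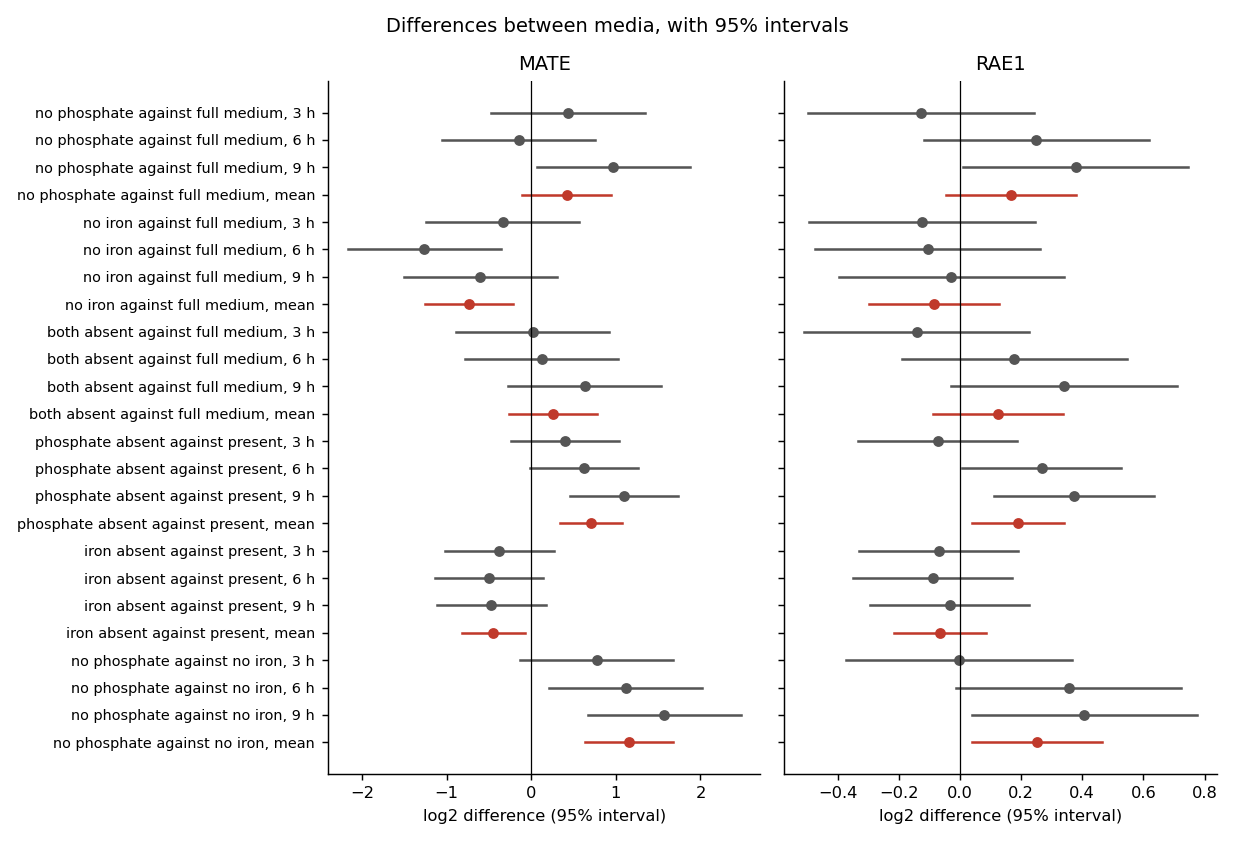
Log2 differences of MATE and RAE1 between media at 3, 6 and 9 h and averaged over the times (horizontal axes, which differ in scale, points with 95% intervals of the fit, means over the times in red), one row per comparison. The MATE intervals for no phosphate against no iron lie above 0 at 6 and 9 h and in the mean, and all RAE1 estimates lie between -0.14 and 0.41.

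Without phosphate alone, MATE differed from full medium by 0.44 at 3 h (95% interval -0.47 to 1.34), -0.15 at 6 h (-1.05 to 0.76) and 0.97 at 9 h (0.06 to 1.87, 1.96-fold, unadjusted p = 0.0366, adjusted p = 1). The arrays were wholly higher at 3 h, as for 3.94% of all rows, and at 9 h, as for 3.68%. Both shares say that a separation of 3 against 3 arrays was common. Without replicate 3 of full medium the 6 h difference was 0.58, and without replicate 2 it was -0.73, so its sign rests on single arrays. RAE1 stood at differences of -0.13, 0.25 and 0.38 at the same times (9 h: 95% interval 0.01 to 0.75, adjusted p = 1), with wholly higher arrays at 9 h.

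Without iron alone, MATE was below full medium at every time by estimate, with -0.34 at 3 h, -1.27 at 6 h (95% interval -2.17 to -0.36, unadjusted p = 0.00767) and -0.60 at 9 h. The mean was -0.73 (SE 0.26, 95% interval -1.26 to -0.21, adjusted p = 1, with 0.0105% of rows called). The 6 h value was -0.53 without replicate 3 of full medium and -1.85 without replicate 2. RAE1 differed by -0.12, -0.11 and -0.028, and the interval of its mean ran from -0.30 to 0.13.

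Without both nutrients, the MATE differences to full medium were 0.019, 0.12 and 0.63 at 3, 6 and 9 h. The arrays at 9 h were wholly higher, as for 5.66% of all rows, but the 95% interval of that difference included 0 (-0.28 to 1.53), and it was 0.37 without replicate 2 of full medium. RAE1 differed by -0.14, 0.18 and 0.34. The 3 deprivations share the full medium arrays, so these values are not independent of one another.

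Differences between the deprived media do not use the full medium arrays. Their SE and p do, because the fit took the variance of a row from all groups together. The scattered full medium group at 6 h was among these. In no phosphate against no iron, MATE differed by 0.77 at 3 h, 1.12 at 6 h and 1.57 at 9 h (2.97-fold, unadjusted p = 0.0013, adjusted p = 0.863). Without replicate 1 of no iron at 3 h the 3 h value was 0.42. In the mean, where MATE had an adjusted p of 0.0594, limma called 35 rows, 0.123% of all. MATE ranked 44 by p in that comparison. RAE1 differed by -0.0034, 0.36 and 0.41 at the 3 times, and its no phosphate arrays overlapped the no iron arrays at 3, 6 and 9 h.

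The replicate numbers pair these groups, since same-numbered arrays deviated together at 3, 6 and 9 h, and with the block MATE passed (adjusted p = 0.0431). It also passed when the 18 arrays of these groups were fitted alone (0.029), when rows below the median level were left out (0.0397) and with array quality weights (0.0294). It did not pass after quantile normalization (0.0571), after centring of arrays on their medians (0.0601) or with a trended, robust variance (0.0762). Leaving out 1 array at a time gave differences of 1.04 to 1.28 and adjusted p of 0.0242 to 0.169, under 0.05 without replicate 2 of no iron at 3 h or at 6 h. These fits with 1 array left out were added once values had been looked at.

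Roots that lacked phosphate in addition to iron, both absent against no iron, gave a MATE difference of 0.99 in the mean (SE 0.26, 95% interval 0.47 to 1.51, 1.99-fold, adjusted p = 0.343, with 0.0386% of rows called). By time it was 0.36, 1.39 and 1.23, and the arrays were wholly higher at 6 h, as for 3.21% of rows, and at 9 h, as for 4.41%. The 3 h value was 0.0025 without replicate 1 of no iron at 3 h. Lack of iron in addition to phosphate, both absent against no phosphate, gave -0.42, 0.27 and -0.34, with a mean of -0.16 (95% interval -0.68 to 0.36). RAE1 differed by 0.21 (95% interval -0.0012 to 0.42) in the first and by -0.04 (-0.25 to 0.17) in the second. The first minus the second is the no phosphate against no iron difference given above.

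The phosphate by iron interaction, which asks whether the missing phosphate mattered more where iron was missing too, was 0.57 for MATE in the mean (95% interval -0.17 to 1.31, adjusted p = 1). At 6 h it was 1.54 (95% interval 0.26 to 2.82, unadjusted p = 0.0202, adjusted p = 1), a value that includes the scattered full medium group. For RAE1 it was 0.044 in the mean (-0.26 to 0.35). Effects of a deprivation were also compared between times, and limma called 0 rows in each of those 9 comparisons (655 to 1134 rows at an unadjusted p under 0.05). The MATE effect of no phosphate was larger by 1.12 at 9 h than at 6 h (95% interval -0.16 to 2.40, unadjusted p = 0.0845), and that of RAE1 by 0.51 at 9 h than at 3 h (-0.01 to 1.03, unadjusted p = 0.0565).

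Against time 0, MATE was higher without phosphate by 0.73 at 3 h, 1.06 at 6 h and 1.35 at 9 h (95% interval 0.45 to 2.25, 2.55-fold, adjusted p = 0.173). The no phosphate arrays were wholly higher at all 3 times, as for 5.39%, 6.18% and 6.05% of rows, and limma called 0.649%, 1.38% and 1.28% of rows. Without both nutrients the differences were 0.31, 1.33 and 1.01, wholly higher at 6 h, as for 5.47% of rows, and at 9 h, as for 7.79%. Without iron MATE stayed near its time 0 level by estimate (-0.044, -0.061 and -0.22), each with an interval of about 1 log2 unit to either side (at 9 h -1.13 to 0.68).

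In full medium itself the MATE differences to time 0 were 0.29, 1.20 and 0.38. The 6 h value (95% interval 0.30 to 2.11, adjusted p = 0.285) was 0.47 without replicate 3 of full medium and 1.79 without replicate 2, with an adjusted p of 0.0417 in the last case. RAE1 was below time 0 by estimate in 10 of the 12 transferred groups. It was lower by estimate at 6 h without iron (-0.40, 95% interval -0.77 to -0.03, unadjusted p = 0.0334, adjusted p = 0.444). In full medium at 9 h all 3 arrays lay below time 0 (-0.22, 95% interval -0.59 to 0.15), as for 8.92% of rows.

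Set against each other, MATE and RAE1 moved together weakly. Over the 13 group means Pearson's r was 0.449 and Spearman's rho 0.407, and 6.33% of rows followed MATE at least as closely. Over the deviations of the 39 arrays from their group means r was 0.363 and rho 0.251, and r was 0.195 without the 2 arrays farthest out. The MATE and RAE1 values of an array come from the same RNA sample. Replicate 3 of full medium at 6 h and of both absent at 6 h stood high in both genes, and replicate 3 of both absent at 3 h stood low in both.

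The genes whose 13 group means were most like those of MATE were sought among 1787 rows naming a single gene and with a range of at least 0.5 times that of MATE. They were AT3G22240 (r = 0.963, rho = 0.956), AT2G43590, of the chitinase family (r = 0.911), AT5G50180 (r = 0.874) and AT1G51840 (r = 0.815). AT3G22240 was at the top also by Spearman's rho. Within groups the likeness was lower, with r of the array deviations at 0.334, 0.746, 0.447 and 0.296. AT2G43590 had levels of 4.54, 4.64 and 9.10 in full medium at 6 h, with the same replicate 3 high as for MATE.

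AT5G50180 was the gene of these 4 that limma called for phosphate. It stood at 6.25 in the mean without phosphate, against 5.87 with it, a log2 difference of 0.38 (SE 0.08, adjusted p = 0.0396). It had been picked for likeness to MATE on the same group means, so this call is no independent support for MATE. AT3G22240 differed by 0.43 (SE 0.13, adjusted p = 0.38), AT2G43590 by 0.72 (SE 0.32, adjusted p = 0.852) and AT1G51840 by 0.40 (SE 0.10, adjusted p = 0.225). AT1G51840 rose over time 0 by 9 h without phosphate (1.50, adjusted p = 0.000512), without both (1.30, adjusted p = 0.0025) and in full medium (0.99, adjusted p = 0.0384).

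For RAE1, among 14657 rows, the closest were AT2G45320 (r = 0.840), AT5G54950 (r = 0.839), AT4G18380 (r = 0.822) and AT1G46696 (r = 0.791). These matches depended on the arrays used. With only 2 of the 3 replicates in each mean, their r fell as low as 0.362 and their rank as low as 1227. In some of these pairs AT2G45320 and AT1G46696 dropped out of the compared rows. Their deviations within groups had r between -0.253 and 0.092 with RAE1.

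**Figure D3:**
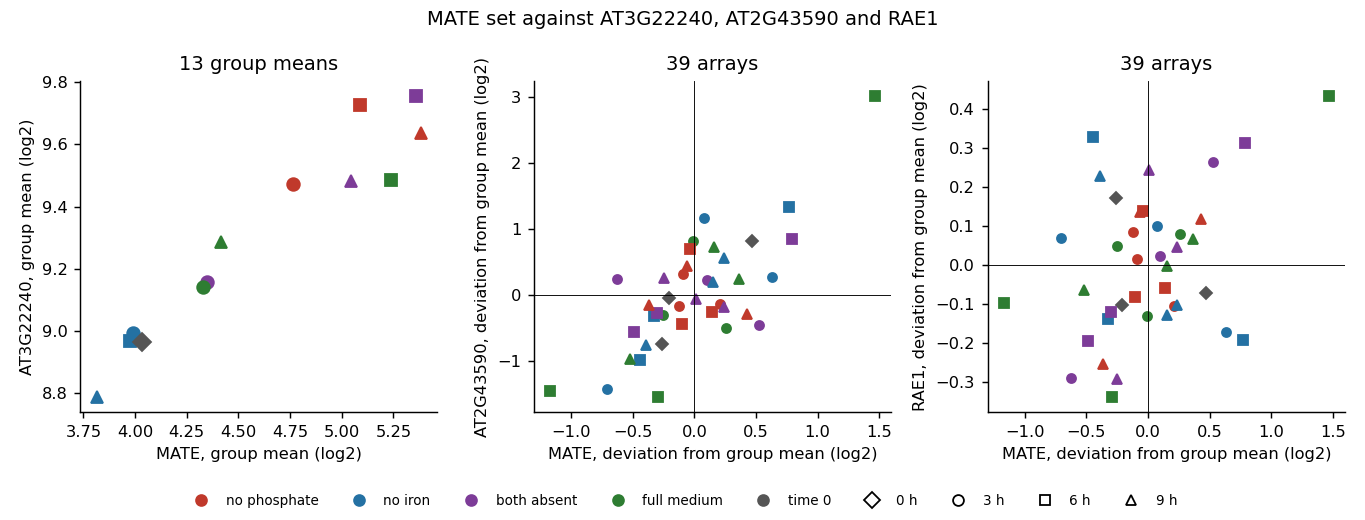
Log2 levels of AT3G22240 against MATE over the 13 group means (left panel), and deviations of the 39 arrays from their group means for AT2G43590 (middle) and RAE1 (right) against those of MATE, with colours for media and symbols for hours. The group means of AT3G22240 line up with those of MATE (r = 0.963), the deviations of AT2G43590 follow less closely (r = 0.746) and those of RAE1 loosely (r = 0.363), and 1 full medium array at 6 h lies at the upper right of both panels of deviations.

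Of 30 genes listed for the STOP1 pathway and for tolerance of aluminium or low pH, 8 had a row of their own, MATE and RAE1 among them. STOP1 and ALMT1 were not among the 8. The other 6 were RAH1, the close homologue of RAE1 that also acts on STOP1, RAE2/TEX1 and RAE3/HPR1, which serve in export of mRNA from the nucleus, SIZ1, a SUMO ligase, and the ferroxidases LPR1 and LPR2 of the root tip response to low phosphate. Between media limma called 0 of these 6 in either direction, and for phosphate absent against present 1 of them, LPR2, had an unadjusted p under 0.05, as had 5.47% of all rows. For phosphate absent against present their median was 0.02, against -0.0023 over all rows, and 4 of 6 were above 0.

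LPR2 had the largest of these differences, with a level of 6.13 without phosphate, against 5.91 with it (0.23, SE 0.08, 95% interval 0.06 to 0.40, adjusted p = 0.665). RAH1 differed by 0.16. Against time 0 LPR2 rose in 10 of the 12 transferred groups, full medium among them, by 1.03 without phosphate at 9 h (adjusted p = 0.00393), 1.15 without both at 9 h (adjusted p = 0.000793) and 0.92 in full medium at 9 h (adjusted p = 0.013). The groups not called were full medium at 3 h and no iron at 9 h. MATE and RAE1 were called in none of these 12.

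The measured relatives of MATE and genes of organic acid metabolism were near 0 in the same comparison, but several of their rows were dim. Of 8 listed transporters of the MATE (multidrug and toxic compound extrusion) family 2 were measured, DTX33 and DTX50, which differed by -0.01 and 0.03 for phosphate absent against present. Members of the family beyond these 8 were not looked up. Of 14 ALMT channels 10 were measured, with a median of -0.01 and a range of -0.15 to 0.15. ALMT8 stood at -0.14 (95% interval -0.25 to -0.02, adjusted p = 0.793). Mean levels were 1.37 for DTX50 and 1.16 to 1.87 for ALMT2, ALMT5, ALMT7, ALMT8, ALMT13 and ALMT14, against array medians of 3.34 to 3.45. In such dim rows a difference may go unseen. Of 15 genes of citrate synthesis and use 5 were measured, with a median of -0.02 and a range of -0.04 to 0.07. They were the ATP citrate lyase subunits ACLA-1, ACLA-2, ACLA-3 and ACLB-1 and the cytosolic isocitrate dehydrogenase CICDH. The listed citrate synthases and aconitases had no row of their own. Limma called 0 of the 2, 10 and 5 genes between media, and at an unadjusted p under 0.05 it was 0, 1 and 0 of them for phosphate absent against present, against 5.47% of all rows.

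**Figure D4:**
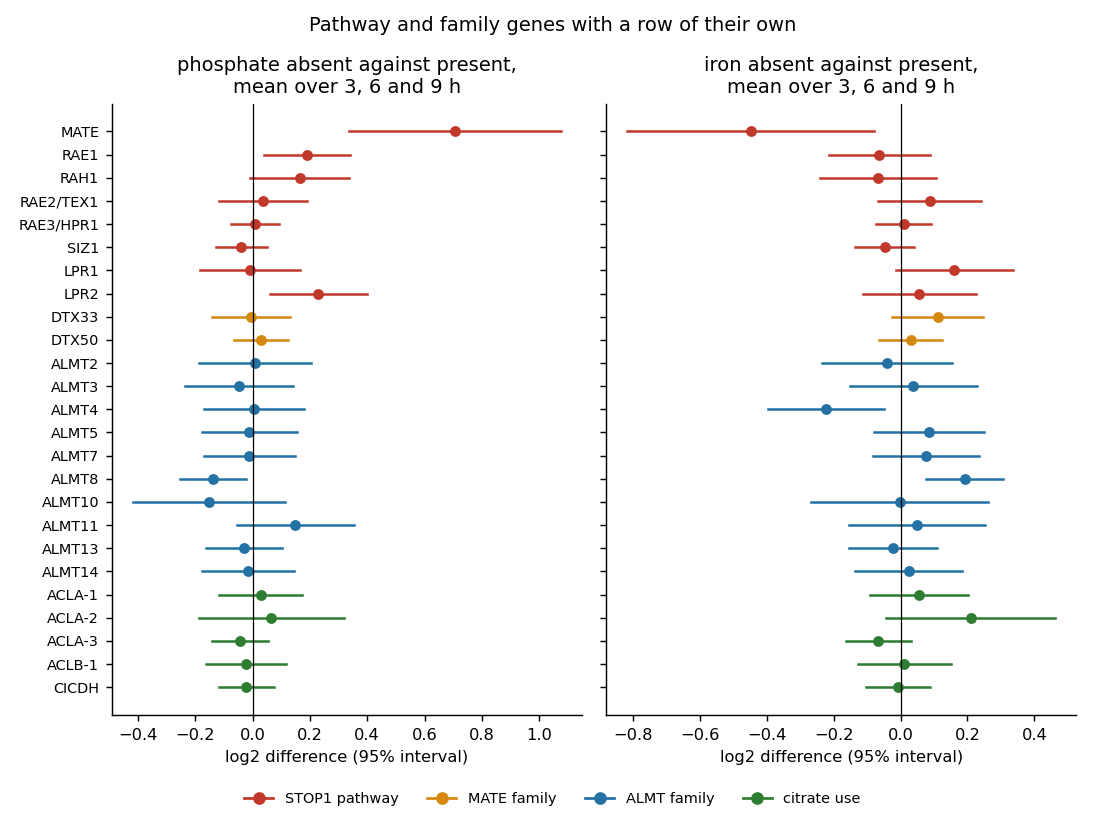
Log2 differences for phosphate absent against present and for iron absent against present, averaged over 3, 6 and 9 h (horizontal axes, points with 95% intervals), for the measured genes of the STOP1, MATE, ALMT and citrate lists. MATE has the highest value in the left panel, 0.71, and the lowest in the right, -0.45.

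None of 14 listed phosphate deficiency markers had a row of its own, so the onset of phosphate deficiency was not checked with them. Of 18 iron deficiency markers 5 were measured. Between media limma called 0 of them. For iron absent against present their median was 0.11, with 1 gene at an unadjusted p under 0.05, against 3.96% of all rows. In no iron at 9 h against time 0, which includes any change from the transfer, limma called 1 of the 5, against 1.35% of all rows. That gene was the iron-deficiency peptide gene IMA2 (1.46, adjusted p = 0.00927), a dim row with a mean level of 1.56. The median of the 5 in this comparison was 0.055. The labelled tissue was checked on EXPA7, an expansin of root hair cells and the 1 root marker measured of 13, which ran from 4.14 to 6.18 over all arrays. Of 9 shoot markers the 2 measured were also present. RCA (Rubisco activase) ran from 5.68 to 8.36 without phosphate, against 5.69 to 8.34 with it, and LHCB4.1, of the light-harvesting complex, from 4.30 to 6.51, against 4.02 to 6.86.

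The shoot markers differed by 0.25 (RCA, SE 0.28) and 0.17 (LHCB4.1, SE 0.27) for phosphate absent against present. Their array deviations had r of 0.11 and 0.0014 with those of MATE, and those of EXPA7 had r of -0.391 (39 arrays). The part of shoot or root hair RNA in the MATE differences was not tested. In whole roots, fewer cells that carry a transcript and less of it per cell cannot be told apart.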

How the data were processed

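The authors deposited 1 log2 value per array and row. Per the submitters' processing notes, GCRMA was used with Expression Console and Transcriptome Analysis Console of Affymetrix, whose versions the sources used here do not give. GCRMA models background on probe sequence, normalizes arrays together and summarises probes. The log base was inferred from the values (0.141 to 12.8, array medians 3.34 to 3.45), and every fold depends on it. Per the labels' protocols, 100 ng of RNA were labelled with biotin. In the annotation 16746 rows name 1 gene, 758 name several and 10997 name none. Symbols came from RefSeq (TAIR10.1).

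All 39 arrays entered 1 limma fit (limma 3.58.1, R 4.3.3, lmFit and eBayes) with a mean per group. Benjamini-Hochberg adjustment ran over 28501 rows, with calls at an adjusted p under 0.05. Of the 57 comparisons, 6 (phosphate and iron effects at single times) were chosen with values in view. Fits that left out 1 array in comparisons between deprived media were also added with values in view. The fit was also run on simulated rows whose arrays varied independently, with an outcome not given here. Such rows cannot show how the fit handles replicate pairing. Genes named are the members, the 4 closest in group means for each, and measured genes of the lists. Members and lists were chosen with earlier results of these data known. Replicate pairing was checked from deviations from group means over all rows. Their correlation averaged 0.259 for equal numbers and -0.128 for others. Deviations cancel out within a group, so the second value largely follows from the first. By these correlations 37 of the 39 arrays were closest to their own number. Every pair exceeded 0.1 in 19 of 30 comparisons of 2 groups. Alternatives were quantile normalization, median centring, a filter on dim rows, fewer groups, a replicate block, array weights, a trended robust variance and leaving out each array. The number of arrays limits the precision.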

Additional observations from a re-analysis of the deposited data

How the results depend on the processing

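Values are log2 differences. Of 57 MATE and 57 RAE1 comparisons, median centring and the trended, robust variance moved none across the threshold or through 0. For MATE, no phosphate against no iron in the mean passed at 1.15 with the replicate block (adjusted p = 0.0431), without rows below the median level (0.0397) and with only those groups (0.029), and at 1.11 with array quality weights (0.0294). The block changed no other call of either gene. Phosphate absent against present in the mean passed at 0.72 with array weights (0.0488). Its adjusted p ran from 0.0488 to 0.264 over the 7 alternatives other than leaving out single arrays. Array weights turned these MATE signs: no phosphate against full medium at 6 h (0.015), both absent against full medium at 3 h (-0.022), the interaction at 3 h (0.10) and no iron against time 0 at 3 h (0.021). For RAE1 they turned no iron against full medium at 6 h (0.043), iron absent against present at 9 h (0.00015), the interaction at 6 h (-0.14) and 9 h (0.061), both absent against no phosphate at 9 h (0.031), no phosphate against no iron at 3 h (0.035, and 0.048 after quantile normalization) and the no iron effect at 9 h minus 6 h (-0.073). The cause was not tested.

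Leaving out 1 array gave MATE ranges of 1.04 to 1.28 for no phosphate against no iron in the mean, 0.61 to 0.83 for phosphate absent against present in the mean, and 0.47 to 1.79 for full medium against time 0 at 6 h, each passing with at least 1 array left out. It turned the sign of small differences. For MATE these were no iron against time 0 at 3, 6 and 9 h (-0.36 to 0.31, -0.45 to 0.17 and -0.35 to 0.014), no iron against full medium at 3 h (-0.65 to 0.017), both absent against full medium at 3 h (-0.24 to 0.33) and 6 h (-0.46 to 0.85), no phosphate against full medium at 6 h (-0.73 to 0.58) and both absent against no phosphate at 6 h (-0.12 to 0.51). For RAE1 they were full medium against time 0 at 3 h (-0.094 to 0.042), no phosphate against time 0 at 6 h (-0.12 to 0.040), both absent against time 0 at 9 h (-0.00073 to 0.27), both absent against full medium at 3 h (-0.27 to 0.0028), both absent against no phosphate at 3, 6 and 9 h and in the mean (-0.15 to 0.13, -0.23 to 0.025, -0.17 to 0.11 and -0.094 to 0.0067), no phosphate against no iron at 3 h (-0.089 to 0.049), both absent against no iron at 3 h (-0.15 to 0.13), and no iron against full medium at 6 h (-0.27 to 0.11) and 9 h (-0.14 to 0.035).

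With 3 arrays a group, the SE of a difference between 2 groups at 1 time was 0.44 for MATE and 0.18 for RAE1, and a MATE difference of 1.57 was not called. Most listed phosphate, iron and STOP1 genes had no row of their own and were not analysed here.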
